A study of Mus musculus with 12 samples.

Results

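The aquaporins are membrane channels for water, and the vasopressin V2 receptor (Avpr2) is the hormone receptor that controls part of them in the kidney. Here 10 such genes were followed, namely the aquaporin genes Aqp1, Aqp2, Aqp3, Aqp4, Aqp5, Aqp6, Aqp7, Aqp8 and Aqp11 together with Avpr2, taken by gene symbol from the 19938 genes that the arrays measured. Each of the 10 genes was read by 1 of the 35556 probe sets. The kidneys came from mice aged 3 weeks and were profiled whole on 12 Affymetrix arrays, 3 per group, with the RNA of 3 mice pooled on every array.

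The 4 groups were PpargΔ/Δ mice and control mice, both on a mixed C57BL6/SV129 background, and AZIP mice and FVB control mice, both on FVB. Pparg encodes PPARγ, the nuclear receptor required to form fat cells, and the labels do not say how or in which cells PpargΔ/Δ mice lost it. AZIP mice carry an intact Pparg and a transgene that keeps fat tissue from forming, driven by a promoter that the labels likewise leave unnamed. The genotype of the controls is given only as control. PpargΔ/Δ and AZIP were each set against controls of their own background, so the group means in these comparisons share no array. The comparison of the FVB control with the control shares its arrays with both. For each gene, all tests use the same estimate of the spread, taken from all 12 arrays. P-values measure the spread between pools, not that between single mice.

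Water leaves the tubule fluid of the kidney through aquaporins. Aqp1 serves the proximal tubule and the thin descending limb, whereas the principal cells of the collecting duct carry Aqp2 in their apical membrane and Aqp3 and Aqp4 in their basolateral membrane. Vasopressin binds the V2 receptor on these cells and raises cyclic AMP, which moves Aqp2 vesicles to the apical membrane and increases transcription of the Aqp2 gene.

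Values are log2 signals of the whole probe set, so levels of different genes cannot be set against each other. Differences are on the same log2 scale with the SE from limma, each from n = 3 arrays per group. An adjusted p (Benjamini-Hochberg, over all genes tested) under 0.05 was the threshold. The median signal of an array was 7.17 to 7.21, and the mean correlation within a group was 0.997 to 0.998 across genes. The Pparg probe set read 8, 8.19 and 8.01 on the PpargΔ/Δ arrays, against 7.9, 7.97 and 8.02 on the control arrays. It was thus not lower there (0.11 ± 0.06, limma adjusted p = 0.339). Where its probes lie relative to the deleted stretch is not given, so it does not check the genotype, and PpargΔ/Δ below is the label of these arrays. The 13 proximal tubule markers averaged 11.78 to 12.01 on the PpargΔ/Δ arrays and 12.07 to 12.20 on the control arrays. They averaged 12.05 to 12.14 on the AZIP arrays and 12.21 to 12.27 on the FVB control arrays. All of these lie above the array medians. Since levels of different genes cannot be compared, this is only a rough check of the tissue label. In whole kidney, fewer cells of a type and less RNA per cell cannot be told apart.

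In PpargΔ/Δ kidneys the water channels of the principal cell were higher. Aqp2, Aqp3 and Aqp4 passed the threshold, by 0.42 to 0.61 on the log2 scale, whereas the V2 receptor did not. Of the 10 genes, 3 were called higher and 0 lower, against 2.67% of all genes called higher and 2.62% called lower (5.29% in either direction). Groups did not overlap for 4 of the 10, against 26.1% of all genes. The median difference of the 10 was 0.04, against -0.01 over all genes.

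Aqp2, the vasopressin-regulated channel of the apical membrane, had log2 signals of 10.75, 10.83 and 10.97 in PpargΔ/Δ kidneys, against 10.38, 10.52 and 10.21 in control kidneys. All 3 PpargΔ/Δ arrays lay above all 3 control arrays. The difference was 0.48 ± 0.10 (95% interval 0.26 to 0.70), a 1.39-fold higher signal (limma adjusted p = 0.022). It held its direction when any array was left out, at 0.40 to 0.55. The call was lost without PpargΔ/Δ array 2 or 3, or control array 1 or 3, at adjusted p-values of up to 0.0819.

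Aqp3, which passes water and glycerol across the basolateral membrane, had signals of 10.14, 10.18 and 10.33 in PpargΔ/Δ kidneys, against 9.83, 9.87 and 9.70 in control kidneys. These groups did not overlap either. The difference was 0.42 ± 0.09 (95% interval 0.21 to 0.62), or 1.33-fold (limma adjusted p = 0.0285). Leaving out PpargΔ/Δ array 2 or 3 or any of the 3 control arrays ended the call, with differences of 0.36 to 0.45 and adjusted p-values of up to 0.0987. It also ended when probe sets without a single gene symbol were tested too (adjusted p = 0.06).

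Aqp4, the other basolateral water channel, had signals of 9.22, 9.77 and 9.60 in PpargΔ/Δ kidneys, against 8.73, 9.25 and 8.78 in control kidneys. PpargΔ/Δ array 1 lay just below control array 2, so the groups overlapped. The difference was 0.61 ± 0.16 (95% interval 0.26 to 0.96), or 1.53-fold, with a limma adjusted p of 0.048. The difference was 0.49 to 0.78 with an array left out. The call did not hold without PpargΔ/Δ array 2 or 3, control array 1 or 3, AZIP array 1 or 2, or any FVB control array, where the adjusted p reached 0.162. It also ended with all probe sets tested or with only these groups fitted (adjusted p up to 0.111).

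**Figure D1:**
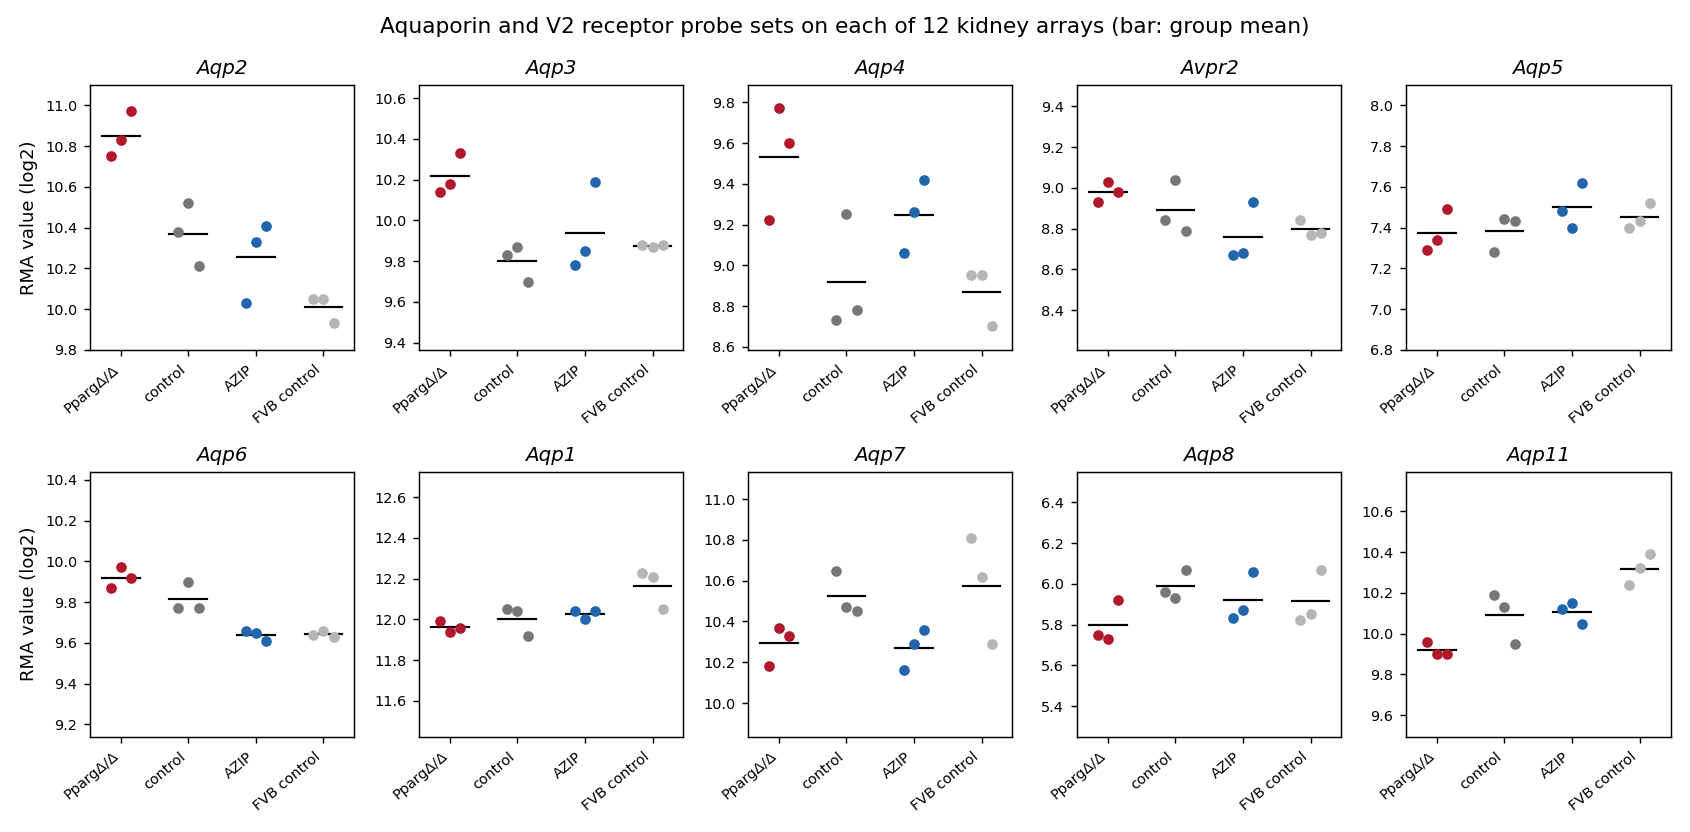
Log2 signal (vertical axes, 1 scale per gene) of the 10 genes in the 4 groups, with a point per array and a bar for the group mean. The PpargΔ/Δ arrays of Aqp2 and Aqp3 sit above every control array, while those of Avpr2 lie among them.

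The V2 receptor Avpr2 had signals of 8.93, 9.03 and 8.98 in PpargΔ/Δ kidneys, against 8.84, 9.04 and 8.79 in control kidneys. The highest value was on a control array. The difference of 0.09 ± 0.08 had a 95% interval of -0.08 to 0.26 (limma adjusted p = 0.582). That interval ends below the 0.48 measured for Aqp2, whose own interval begins at 0.26. Whether Avpr2 differed less than Aqp2 was not tested.

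The promoter windows of Aqp2 and Aqp3 are shown because these are the called genes whose PpargΔ/Δ and control arrays did not overlap. They are RefSeq sequences of build GRCm38.p6, read 5′ to 3′ on the strand of the gene, from 250 bases before its start to 50 after it. Capitals mark matches to 7 motifs searched on both strands. The first 4 were the cyclic AMP response element TGACGTCA, its shorter form TGACG, the DR1 element AGGTCANAGGTCA that is known to be bound by PPAR receptors, and the single repeat AGGTCA of which DR1 is made. The other 3 were the GATA motif AGATAA, the core TGGAAA of the tonicity element bound by Nfat5, and the E-box CACGTG. Both shorter motifs also lie within the longer elements.
Aqp2 promoter, chr15:99578806-99579105 (+): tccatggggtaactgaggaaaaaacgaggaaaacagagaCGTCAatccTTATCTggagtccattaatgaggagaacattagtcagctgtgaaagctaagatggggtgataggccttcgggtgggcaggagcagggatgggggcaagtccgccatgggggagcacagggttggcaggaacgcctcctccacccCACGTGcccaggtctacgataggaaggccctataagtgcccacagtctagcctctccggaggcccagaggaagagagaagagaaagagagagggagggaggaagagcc
Aqp3 promoter, chr4:41098134-41098433 (-): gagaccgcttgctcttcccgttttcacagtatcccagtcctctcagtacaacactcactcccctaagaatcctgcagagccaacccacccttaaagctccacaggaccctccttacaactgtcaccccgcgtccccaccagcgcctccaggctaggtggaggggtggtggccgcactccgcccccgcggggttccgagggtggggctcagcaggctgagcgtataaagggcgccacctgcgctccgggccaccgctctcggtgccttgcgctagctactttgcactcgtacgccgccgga

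The Aqp2 window held the short cyclic AMP element and a GATA motif near each other, both on the other strand, and an E-box nearer to the start. None of the 7 motifs was found in the Aqp3 window. A match is a run of letters and does not show binding. Windows of 9 of the 10 genes were searched, all but Aqp4, with 2 windows for Aqp7. A gene is counted if any of its windows holds the motif. TGACG was in 1 of these 9 genes and in 20.8% of 32851 promoters, and the GATA motif in 2 of 9 and in 11.2% of promoters. The full response element was in 0 of 9 and in 1.79% of promoters. The DR1 element was in 0 of 9 and in 0.0396% of promoters, and the tonicity core in 1 of 9 and in 21.4% of promoters.

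The E-box was in 4 of the 9 genes, against 7.15% of promoters, and is printed with its surroundings because 3 of the 4 genes are neighbours. Aqp2, Aqp5 and Aqp6 lie next to each other on chromosome 15, with 0 annotated genes between them.
Aqp2, chr15:99578986-99579015 (+): cctcctccacccCACGTGcccaggtctacg
Aqp5, chr15:99590929-99590958 (+): tgccgcgtgggtCACGTGgcccgggcgggt
Aqp6, chr15:99601159-99601188 (+): agctggaacagaCACGTGagcactctgaac
Aqp8, chr7:123462207-123462236 (+): aatcattgatccCACGTGgcccttgccctg
Aqp2 was the one of these 4 genes that was called in PpargΔ/Δ kidneys.

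Aqp5, best known from glands and lung, had signals of 7.29 to 7.49 in PpargΔ/Δ kidneys and 7.28 to 7.44 in control kidneys. Its difference was -0.01, with a 95% interval of -0.17 to 0.15 (limma adjusted p = 0.95), and left-out arrays moved it to either side of 0. Aqp6, an intracellular channel of intercalated cells, had 9.87 to 9.97 in PpargΔ/Δ kidneys and 9.77 to 9.90 in control kidneys. Its difference was 0.10 ± 0.05 (limma adjusted p = 0.261), and the groups overlapped. The 3 neighbouring genes thus did not all pass the test in PpargΔ/Δ kidneys.

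Among the aquaporins of the proximal tubule, none passed the threshold in PpargΔ/Δ kidneys. Aqp1, the constitutive water channel of this segment, had signals of 11.94 to 11.99 in PpargΔ/Δ kidneys and 11.92 to 12.05 in control kidneys, a difference of -0.04 (95% interval -0.16 to 0.08, limma adjusted p = 0.743). Aqp7, which takes up glycerol from the filtrate and is also the glycerol channel of fat cells, had 10.18, 10.37 and 10.33 in PpargΔ/Δ kidneys, against 10.65, 10.47 and 10.45 in control kidneys. Those groups did not overlap, yet the difference of -0.23 ± 0.11 missed the threshold (95% interval -0.47 to 0.02, limma adjusted p = 0.299).

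Aqp11, an intracellular aquaporin whose loss gives cystic kidneys in mice, had 9.96, 9.90 and 9.90 in PpargΔ/Δ kidneys, against 10.19, 10.13 and 9.95 in control kidneys. PpargΔ/Δ array 1 and control array 3 overlapped by a narrow margin. The difference was -0.17 ± 0.06 (limma adjusted p = 0.163). Aqp8, a channel for water and ammonia known from several organs, had 5.75, 5.73 and 5.92 in PpargΔ/Δ kidneys, against 5.96, 5.93 and 6.07 in control kidneys. Its difference was -0.19 ± 0.08 (limma adjusted p = 0.226), with no overlap. With the replicate number as a block Aqp8 passed (adjusted p = 0.0351). Array 3 read highest for Aqp8 in every group. All Aqp8 signals lie below the array medians of 7.17 to 7.21, and signals that dim say little. At an unadjusted p under 0.05 there were 5 of the 10 genes (Aqp2, Aqp3, Aqp4, Aqp8 and Aqp11), against 20.4% of all genes.

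The promoters of Aqp7 and Aqp11 are the ones with the AGGTCA repeat, found in 2 of 9 genes and in 16.3% of promoters. It reads TGACCT here because it lies on the other strand.
Aqp7, first match, chr4:41048168-41048197 (-): gaactccacctcTGACCTcacaagggctgc
Aqp7, second match, chr4:41048046-41048075 (-): cccctgccctacTGACCTctcccctggaga
Aqp11, chr7:97738460-97738489 (-): tggctgcaaagaTGACCTctggggctccgt

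In AZIP kidneys, 0 of the 10 genes passed the threshold in limma, against 2.43% of all genes (1.3% called higher and 1.13% called lower). At an unadjusted p under 0.05 there were 5 (Aqp1, Aqp2, Aqp4, Aqp7 and Aqp11), against 16.4% of all genes. Groups did not overlap for 3 of the 10, against 22.5% of all genes. These were Aqp4, higher in AZIP, and Aqp1 and Aqp11, lower in AZIP.

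Aqp4 had signals of 9.06, 9.26 and 9.42 in AZIP kidneys, against 8.95, 8.95 and 8.70 in FVB control kidneys. All AZIP arrays were above all FVB control arrays. The difference was 0.38 ± 0.16 (95% interval 0.04 to 0.73, limma adjusted p = 0.253). Aqp2 had 10.03, 10.33 and 10.41 in AZIP kidneys, against 10.05, 10.05 and 9.93 in FVB control kidneys. AZIP array 1 lay among the FVB control arrays, and the difference was 0.25 ± 0.10 (95% interval 0.02 to 0.47, limma adjusted p = 0.25).

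Aqp3 had 9.78, 9.85 and 10.19 in AZIP kidneys, against 9.88, 9.87 and 9.88 in FVB control kidneys. One AZIP array was above the FVB control arrays and the other two below them, and the difference of 0.07 ± 0.09 (limma adjusted p = 0.81) turned to -0.061 without AZIP array 3. Avpr2 had 8.67, 8.68 and 8.93 in AZIP kidneys, against 8.84, 8.77 and 8.78 in FVB control kidneys, a difference of -0.03 (95% interval -0.21 to 0.14, limma adjusted p = 0.894).

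Aqp7 had 10.16, 10.29 and 10.36 in AZIP kidneys, against 10.81, 10.62 and 10.29 in FVB control kidneys. The spread came from FVB control array 3, which lay with the AZIP arrays. The difference was -0.30 ± 0.11 (limma adjusted p = 0.199), and without that array it passed (adjusted p = 0.0482). Aqp11 had 10.12, 10.15 and 10.05 in AZIP kidneys, against 10.24, 10.32 and 10.39 in FVB control kidneys. The groups were apart and the difference was -0.21 ± 0.06, the smallest adjusted p of the 10 genes (limma, 0.112). Aqp1 had 12.00 to 12.04 in AZIP kidneys and 12.05 to 12.23 in FVB control kidneys, a difference of -0.14 ± 0.06 (limma adjusted p = 0.243). Aqp5, Aqp6 and Aqp8 differed by 0.05, -0.01 and 0.01 (limma adjusted p-values 0.803, 0.972 and 0.98), and those groups overlapped.

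**Figure D2:**
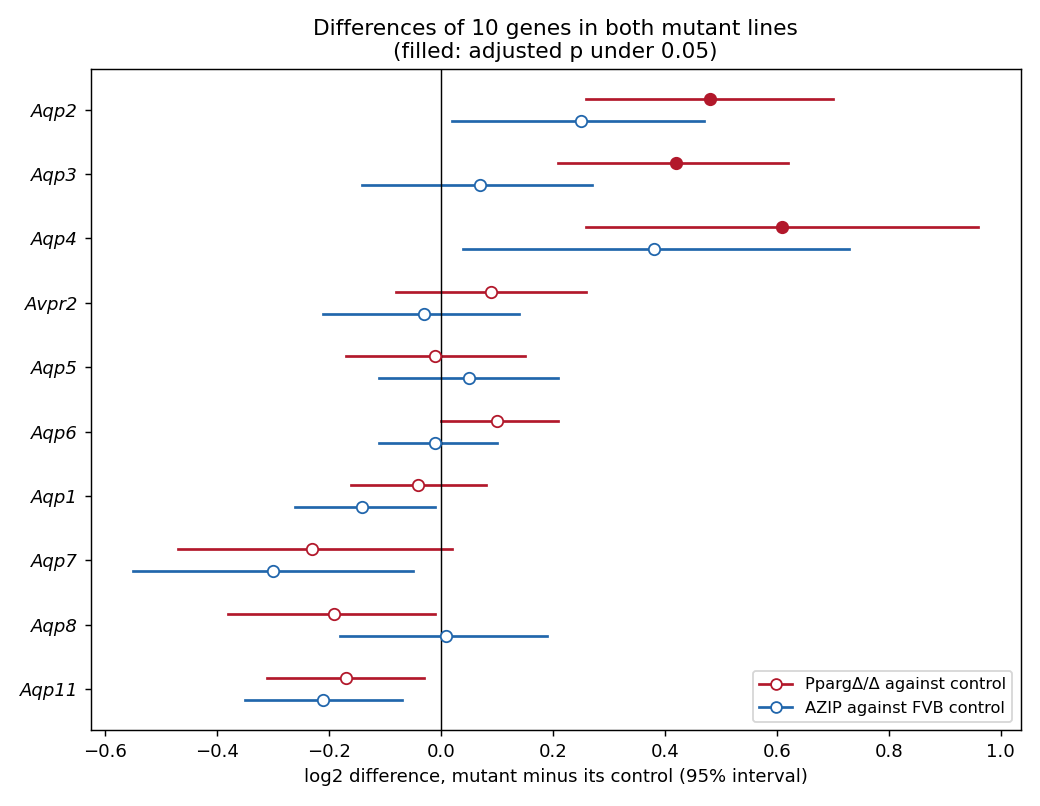
Log2 difference with its 95% interval (horizontal axis) for the 10 genes, PpargΔ/Δ minus control and AZIP minus FVB control, with filled points at an adjusted p under 0.05. Aqp2, Aqp3 and Aqp4 in PpargΔ/Δ kidneys (0.48, 0.42 and 0.61) are the filled points.

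Whether the PpargΔ/Δ and AZIP differences themselves differed was tested directly. None of the 10 genes passed in limma, against 0.0201% of all genes, and the smallest adjusted p was 0.834. Aqp3 was the one gene at an unadjusted p under 0.05, against 5.82% of all genes. Its PpargΔ/Δ difference exceeded its AZIP difference by 0.35 (95% interval 0.06 to 0.64). For Aqp2 the excess was 0.23 (95% interval -0.09 to 0.55, limma adjusted p = 0.89), and for Aqp4 it was 0.23 (limma adjusted p = 0.936). The call of Aqp2, Aqp3 and Aqp4 in PpargΔ/Δ kidneys and not in AZIP kidneys was therefore not shown to be a difference between the mutants.

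The FVB control was then set against the control, which compares the backgrounds together with anything else that goes with them. None of the 10 genes passed in limma, against 7.22% of all genes (3.5% called higher and 3.72% called lower), and the smallest adjusted p was 0.0528, that of Aqp11. At an unadjusted p under 0.05 there were 4 (Aqp1, Aqp2, Aqp6 and Aqp11), against 19.7% of all genes. Groups did not overlap for 5 of the 10, against 28.5% of all genes. Aqp2 averaged 10.01 ± 0.07 in the FVB control and 10.37 ± 0.15 in the control (SD, n = 3 each), a difference of -0.36 ± 0.10 (limma adjusted p = 0.0595). Aqp6 averaged 9.64 ± 0.02 in the FVB control and 9.81 ± 0.08 in the control, a difference of -0.17 ± 0.05 (limma adjusted p = 0.0627). Aqp11 averaged 10.32 ± 0.07 in the FVB control and 10.09 ± 0.12 in the control, a difference of 0.23 ± 0.06. Aqp2, Aqp6 and Aqp11 passed under several other settings, among them genes under percentile 25 of mean signal left out, an intensity trend and array weights. Aqp2 also passed without control array 3, AZIP array 1 or AZIP array 3, Aqp11 without control array 1, and Aqp1 without FVB control array 3.

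Over all 4 groups, Aqp2 ran from PpargΔ/Δ through control and AZIP down to the FVB control, with means 0.84 apart on the log2 scale. Only the first pair of neighbours in that order did not overlap. Aqp1 and Aqp11 had the order FVB control, AZIP, control and PpargΔ/Δ, in which only the FVB control was apart from its neighbour. For Aqp7 both controls were above both mutants, with no overlap between the control and PpargΔ/Δ. Aqp3 was highest in PpargΔ/Δ and lowest in the control, and the control did not overlap with the FVB control above it. Neighbours overlapped throughout for Aqp4, Aqp5, Aqp8 and Avpr2.

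Within the groups, the same arrays stood at the ends for the principal cell channels. PpargΔ/Δ array 1 was the lowest of its group, and AZIP array 3 the highest of its group, for Aqp2, Aqp3 and Aqp4. Slc14a2, the vasopressin-regulated urea transporter of the inner medullary collecting duct and thin descending limb, shared both. It had 8.82, 9.67 and 9.99 in PpargΔ/Δ kidneys, against 8.70, 8.96 and 8.71 in control kidneys, a difference of 0.70 ± 0.24 (limma adjusted p = 0.125). Without PpargΔ/Δ array 1 the difference was 1.04 and passed (adjusted p = 0.00812). In AZIP kidneys it had 9.10, 9.27 and 9.62, against 8.66, 8.80 and 8.34 in FVB control kidneys. This was a difference of 0.73 ± 0.24 with no overlap (limma adjusted p = 0.148), which passed without PpargΔ/Δ array 1 (adjusted p = 0.0321).

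The surrounding pathway genes were counted in the same way. Of 28 measured genes of vasopressin signalling and Aqp2 trafficking, 2 were called higher and 0 lower in PpargΔ/Δ kidneys, against 2.67% of all genes called higher and 2.62% called lower. Their median difference was 0.01. Avpr1a, the vasopressin V1a receptor, rose by 0.52 ± 0.12 (limma adjusted p = 0.0284), a call lost without PpargΔ/Δ array 2 or 3 or control array 1 or 3 (adjusted p up to 0.103), and with all probe sets tested (0.0605). In AZIP kidneys Avpr1a was 0.39 ± 0.12 higher, with no overlap (limma adjusted p = 0.115). Its PpargΔ/Δ and AZIP differences were not shown to differ (0.13, limma adjusted p = 0.948). Anxa2, an annexin that takes part in vesicle fusion, rose by 0.35 ± 0.07 (limma adjusted p = 0.0165), a call lost without PpargΔ/Δ array 2 or 3 or control array 1 (adjusted p up to 0.0725). In AZIP kidneys Anxa2 was the one called gene of this list, against 1.3% of all genes called higher, at 0.30 ± 0.07 (limma adjusted p = 0.0474). That call was lost without PpargΔ/Δ array 2 or 3, control array 2 or 3, AZIP array 2 or 3, or any FVB control array (adjusted p up to 0.144). It was also lost with equal medians, with all probe sets tested and with only these groups fitted (adjusted p up to 0.0992). Adcy6, the adenylyl cyclase that makes much of the cyclic AMP downstream of the V2 receptor, had a difference of -0.19 ± 0.05 in PpargΔ/Δ kidneys (limma adjusted p = 0.0694), and it passed without control array 3 and with dim genes left out. Its AZIP difference was -0.10 (limma adjusted p = 0.437).

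Of 10 measured genes of Aqp2 transcription and the tonicity response, 1 was called higher and 0 lower in PpargΔ/Δ kidneys, and 0 in either direction in AZIP kidneys, where 4 had an unadjusted p under 0.05. Over all genes, 2.67% were called higher in PpargΔ/Δ kidneys and 16.4% had an unadjusted p under 0.05 in AZIP kidneys. The called gene was Slc6a6, the taurine transporter that rises with tonicity, at 0.30 ± 0.06 (limma adjusted p = 0.0216). That call was lost without PpargΔ/Δ array 3 or control array 2 or 3 (adjusted p up to 0.0793), and with only these groups fitted (0.0682). In AZIP kidneys Slc6a6 was 0.20 ± 0.06 higher with no overlap (limma adjusted p = 0.124). The list as a whole did not rise in PpargΔ/Δ kidneys. Its 10 genes ran from -0.23 to 0.30, with a median of -0.05 and 5 above 0. At an unadjusted p under 0.05 there were 4 of them, in both directions, against 20.4% of all genes. Nfat5, the transcription factor of the tonicity response, had a difference of 0 in PpargΔ/Δ kidneys (limma adjusted p = 0.971) and 0.08 in AZIP kidneys (limma adjusted p = 0.426). Of the 6 measured genes of countercurrent and urea transport, 0 were called in either mutant, against 5.29% of all genes in PpargΔ/Δ and 2.43% in AZIP kidneys. At an unadjusted p under 0.05 there were 2 in PpargΔ/Δ and 1 in AZIP kidneys, against 20.4% and 16.4% of all genes. The 3 aquaporins outside the set of 10 (Mip, Aqp9 and Aqp12) lay between -0.09 and -0.01 in PpargΔ/Δ kidneys, with 0 called and 0 at an unadjusted p under 0.05. They averaged 5.27 to 6.71 in the 4 groups, below the array medians of 7.17 to 7.21, so these small differences say little.

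**Figure D3:**
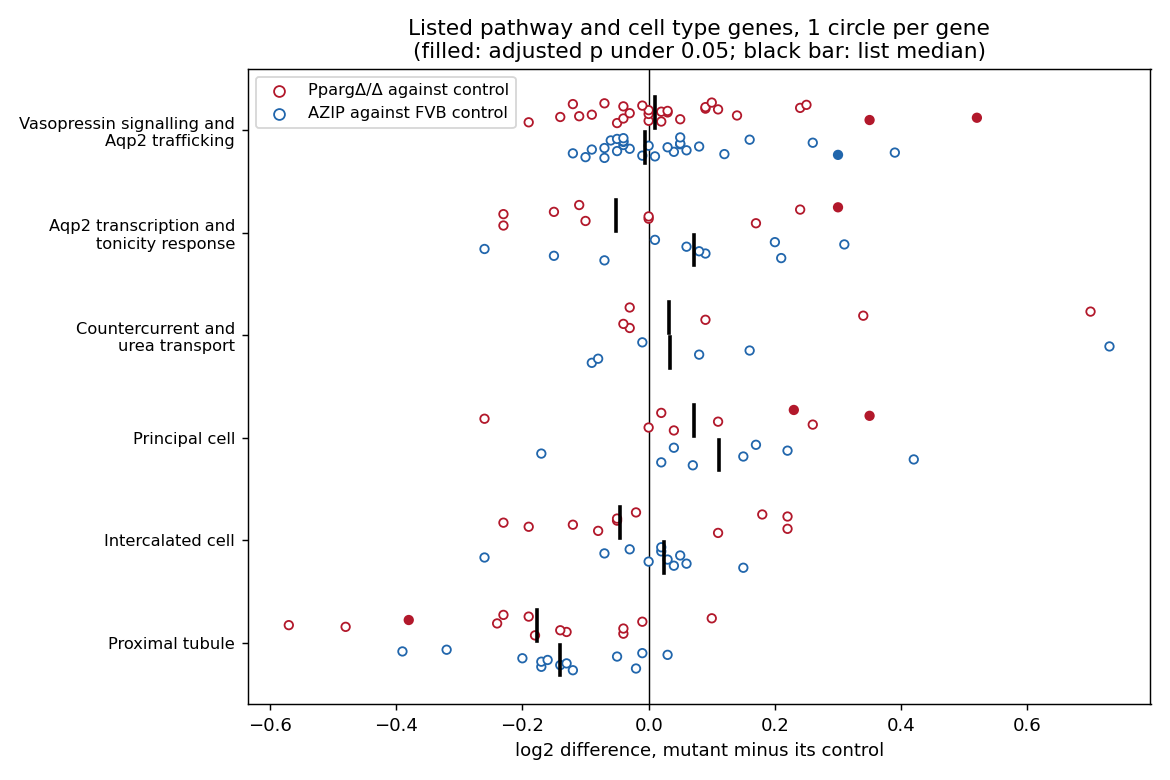
Log2 differences (horizontal axis) of the genes in each pathway and cell type list, with a point per gene and a bar at the median, for PpargΔ/Δ minus control and AZIP minus FVB control. The proximal tubule list is centred at -0.18 in PpargΔ/Δ and -0.14 in AZIP kidneys, and the principal cell list at 0.07 and 0.11.

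Markers of the cell types were read beside these results. Of 8 principal cell markers 2 were called higher in PpargΔ/Δ kidneys, with a median of 0.07 and 7 of 8 above 0, against 2.67% of all genes called higher. Their mean level was 10.25 to 10.36 on the PpargΔ/Δ arrays, against 10.15 to 10.24 on the control arrays. Scnn1a, a subunit of the sodium channel ENaC, rose by 0.35 ± 0.05 (limma adjusted p = 0.00527) and held with every array left out. Scnn1g, another subunit, rose by 0.23 ± 0.06 (limma adjusted p = 0.0499), and leaving out any of 10 of the 12 arrays (all but AZIP array 3 and FVB control array 3) ended that call, at adjusted p-values of up to 0.145. So did repeated quantile normalization, equal medians, all probe sets, only these groups, robust variance and the replicate block (adjusted p up to 0.087). In AZIP kidneys 0 of the 8 were called and 4 had an unadjusted p under 0.05, against 16.4% of all genes. The median of the 8 was 0.11, with 7 above 0. Scnn1a and Scnn1g were 0.22 ± 0.05 and 0.17 ± 0.06 higher in AZIP kidneys, both with no overlap (limma adjusted p = 0.0545 and 0.161).

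Set against the mean of these 8 markers on the same array, Aqp2 stood at 0.55 ± 0.17 in PpargΔ/Δ kidneys and 0.16 ± 0.11 in control kidneys (SD, n = 3 each), without overlap. Aqp3 stood at -0.08 ± 0.15 in PpargΔ/Δ kidneys and -0.41 ± 0.04 in control kidneys, again without overlap. Aqp4 stood at -0.77 ± 0.33 in PpargΔ/Δ kidneys and -1.29 ± 0.27 in control kidneys, with overlap. Avpr2 stood at -1.32 ± 0.09 in PpargΔ/Δ kidneys and -1.32 ± 0.11 in control kidneys. In AZIP kidneys Aqp4 stood at -0.86 ± 0.09, against -1.13 ± 0.12 in FVB control kidneys, and those groups were apart. Avpr2 was apart in the other direction, at -1.35 ± 0.09 in AZIP kidneys and -1.20 ± 0.03 in FVB control kidneys. Aqp2 stood at 0.15 ± 0.11 in AZIP kidneys and 0.01 ± 0.06 in FVB control kidneys, and Aqp3 at -0.17 ± 0.15 in AZIP kidneys and -0.12 ± 0.02 in FVB control kidneys, both with overlap.

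**Figure D4:**
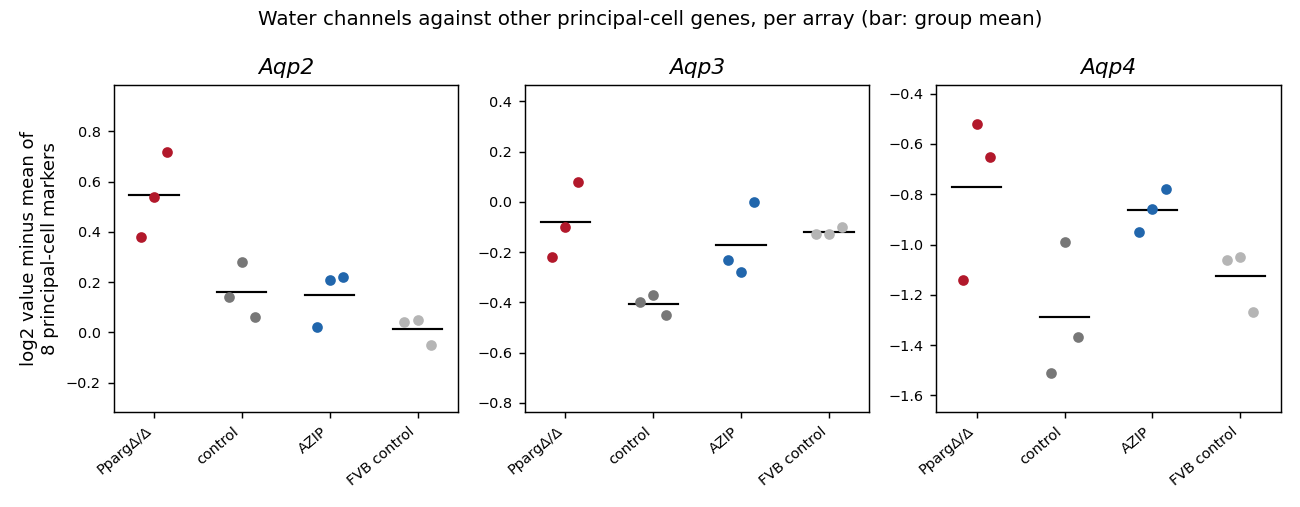
Log2 signal of Aqp2, Aqp3 and Aqp4 minus the mean of 8 principal cell markers on the same array (vertical axes), with a point per array and a bar for the group mean. Aqp2 lies at 0.38 to 0.72 on the PpargΔ/Δ arrays and at 0.06 to 0.28 on the control arrays.

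Proximal tubule markers are given beside Aqp7 and Aqp11, neither of which passed in either mutant. Of 13 markers 12 lay below 0 in PpargΔ/Δ kidneys, with a median of -0.18, and 1 was called lower and 0 higher, against 2.62% of all genes called lower. Their mean level was 11.78 to 12.01 on the PpargΔ/Δ arrays, against 12.07 to 12.20 on the control arrays, with no overlap. Slc5a1, the glucose cotransporter of the late proximal tubule, fell by 0.38 ± 0.09 on the log2 scale (limma adjusted p = 0.0285), a call lost without PpargΔ/Δ array 2 or 3 or any control array (adjusted p up to 0.104), and with all probe sets tested or only these groups fitted (up to 0.0879). In AZIP kidneys 12 of the 13 lay below 0, with a median of -0.14, 0 called and 7 at an unadjusted p under 0.05, against 16.4% of all genes. Their part in the values of Aqp7 and Aqp11 was not tested.

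Fat cell markers are also given beside Aqp7, since fat cells carry it. All 7 measured markers lay below 0 in PpargΔ/Δ kidneys, and their mean level was 6.66 to 6.75 on the PpargΔ/Δ arrays, against 6.91 to 7.04 on the control arrays. The hormone-sensitive lipase Lipe was the one called lower, at -0.59 ± 0.09 (limma adjusted p = 0.00368), against 2.62% of all genes called lower. At an unadjusted p under 0.05 there were 3 of the 7, against 20.4% of all genes. In AZIP kidneys 6 of 7 lay below 0. None was called, against 2.43% of all genes, and 2 had an unadjusted p under 0.05, against 16.4%. The 2 with an unadjusted p under 0.05 lay on opposite sides, Lipe at -0.27 and the fatty acid binding protein gene Fabp4 at 0.26 (limma adjusted p = 0.134 and 0.176), and Fabp4 was named after its value was seen. The mean level was 6.91 to 7.05, against 6.99 to 7.04 in FVB control kidneys. Apart from Lipe and Fabp4, the markers averaged 4.32 to 6.96 in the 4 groups, below the array medians of 7.17 to 7.21. Signals that dim say little about fat cells. The part of fat cells in Aqp7 was not tested.

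The mean level of the 7 urothelium markers was 7.18 to 7.28 on the PpargΔ/Δ arrays, against 7.08 to 7.24 on the control arrays. That mean joined opposite shifts, from -0.91 to 1.80, with a median of -0.18 and 3 of 7 above 0. Of the 7, 1 was called higher and 1 lower, against 2.67% and 2.62% of all genes. At an unadjusted p under 0.05 there were 5, against 20.4% of all genes. The basal keratin Krt5 rose by 1.80 ± 0.14 (limma adjusted p = 0.00018) and the uroplakin Upk1b fell by 0.91 ± 0.15 on the log2 scale (limma adjusted p = 0.0083). Of the 2 red blood cell markers measured, the membrane protein gene Epb42 was called higher at 0.34 (limma adjusted p = 0.042), and any of 10 arrays (all but control array 3 and AZIP array 3) ended that call when left out (adjusted p up to 0.133), as did all probe sets or only these groups (up to 0.103). The red blood cell mean was 7.31 to 7.63 on the PpargΔ/Δ arrays, against 7.12 to 7.39 on the control arrays. Of 7 endothelial and 6 skeletal muscle markers, 0 were called in either mutant, and 1 and 0 had an unadjusted p under 0.05 in PpargΔ/Δ kidneys and 0 in AZIP kidneys. Of the 2 thin limb markers measured, 0 were called in either mutant, with 1 at an unadjusted p under 0.05 in PpargΔ/Δ and 0 in AZIP kidneys. Over all genes, 5.29% were called in PpargΔ/Δ and 2.43% in AZIP kidneys, and 20.4% and 16.4% had an unadjusted p under 0.05. Aqp1 and Aqp3 are also found in red blood cells or urothelium, and the part of these cells was not tested. A log2 array signal has no true 0, so absence of a cell type cannot be read from it.

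The intercalated cell list separated the backgrounds. All 11 markers were lower in the FVB control than in the control, 6 of them called, with a median of -0.32, against 3.72% of all genes called lower. Their mean level was 9.88 to 9.90 on the FVB control arrays and 10.21 to 10.27 on the control arrays. The bicarbonate exchanger Slc4a9 differed by -0.68 ± 0.07 (limma adjusted p = 0.000136) and the chloride exchanger pendrin, Slc26a4, by -0.42 ± 0.08 (limma adjusted p = 0.00671). Aqp6, which these cells carry, shared the direction, and its distance below their mean was -0.24 ± 0.02 in the FVB control and -0.43 ± 0.05 in the control (SD, n = 3 each). Among the principal cell markers 8 of 8 were lower in the FVB control and 1 was called, the sodium pump regulator Fxyd4 at -0.47 ± 0.09 (limma adjusted p = 0.00764). The urea transporter Slc14a1 was called as well, at -0.45 ± 0.11 (limma adjusted p = 0.0277), a call lost without control array 2 or 3 or any FVB control array (adjusted p up to 0.105), and with all probe sets tested (0.0547). In the mutant comparisons 0 of the 11 intercalated markers were called, against 5.29% of all genes in PpargΔ/Δ and 2.43% in AZIP kidneys. At an unadjusted p under 0.05 there were 4 in PpargΔ/Δ and 2 in AZIP kidneys, against 20.4% and 16.4% of all genes.

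**Figure D5:**
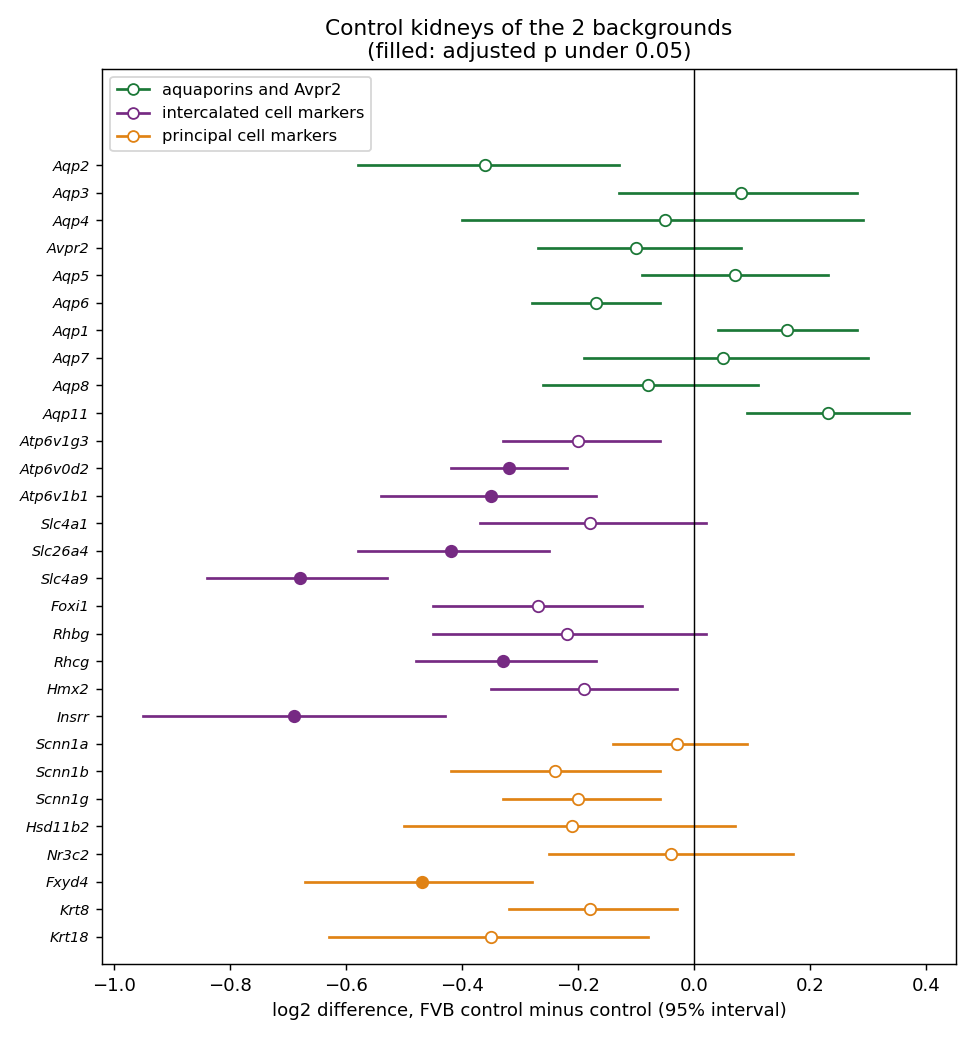
Log2 difference, FVB control minus control, with its 95% interval (horizontal axis) for the 10 genes, the intercalated cell markers and the principal cell markers, with filled points at an adjusted p under 0.05. All 11 intercalated cell markers lie left of 0, 6 of them filled, while none of the 10 genes is filled.

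The genes with the most similar pattern were found by Pearson's r over the 12 arrays, which includes differences of group and background. For Aqp2 these were Prelid2 (r = 0.958), Gnb5 (0.957), Zfp618 (0.955) and Pdlim5 (0.953). For Aqp3 they were Prmt3 (r = 0.94), Msln (0.925), Cdkl3 (0.91) and Hoxd8 (0.907). For Aqp4 they were Get4 (r = 0.953), Smc5 (0.949), Trim16 (0.946) and Cirbp (0.93). None was shared between the 3 channels. The aquaporins and Avpr2 were left out of this search, so it does not show how closely the channels follow each other. The r values are the highest per channel among all other genes tested and only describe these arrays.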

How the data were processed

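RNA of whole kidneys was hybridised to whole-transcript arrays. The deposited values are log2 signals, made by the authors with RMA in the Affymetrix Expression Console software according to the submitters' processing notes. RMA removes background, makes the arrays' distributions alike and condenses the probes of a set to 1 value, which tends to compress fold changes. The version, the settings and the annotation build are not given in these sources. The 35556 probe sets comprised 21789 with a single gene symbol, which were used, 1621 with several and 12146 without one. For 21698 of those used, the Entrez number was found in a RefSeq table and the symbol given there was taken, whether or not it differed. For 999 genes with several probe sets the one with the highest mean was kept, leaving 19938 genes.

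In R 4.3.3, limma 3.58.1 fitted 4 group means to the 12 arrays together, with 8 degrees of freedom left and 3.71 added by its prior, and p-values were adjusted over all genes by Benjamini and Hochberg. The number of arrays limits the precision: the median SE of a difference was 0.0698. The fit was tested on simulated data. The 10 genes and the lists were chosen with earlier results of these data known. The text names list members past the threshold, at most 6 per list and comparison and only part of them, and Avpr1a, Adcy6, Nfat5 and Slc14a2 in any case. Listed genes without a single-symbol probe set, Gnas among them, were not analysed here.

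The deviations from group means of same-numbered arrays correlated at 0.18, 0.18 and 0.01 between PpargΔ/Δ and control, and at -0.04, -0.10 and -0.01 between AZIP and FVB control, so the numbers were not taken as pairs. Between FVB control and control they correlated at 0.25, 0.18 and 0.13, each over 0.1, so by that rule the numbers pair these arrays, although no label states a link. The alternatives are given in the closing section.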

Additional observations from a re-analysis of the deposited data

Results flagged for a closer look

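One result differed between the mutants by a test of the difference itself. Krt5, the basal keratin of the urothelium, was higher in PpargΔ/Δ than in control kidneys by 1.63 more, on the log2 scale, than in AZIP against FVB control kidneys (limma adjusted p = 0.0215). This call was lost without control array 1 or 2, any AZIP array, or FVB control array 2, at adjusted p-values of up to 0.0915, and also with all probe sets tested or with the replicate block (up to 0.114). None of the 10 aquaporin and vasopressin receptor genes met such a test. Groups of 3 arrays were not tested for outlying arrays.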

How the results depend on the processing

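The 3 arrays per group limit every call here, and Aqp5 and Aqp8 were dim enough to drop out when genes under percentile 50 were left out. With an array left out, 0 to 3 of the 10 genes were called in PpargΔ/Δ, 0 to 1 in AZIP and 0 to 1 in the FVB control comparison. All genes called were 330 to 1220 in PpargΔ/Δ, 62 to 606 in AZIP, 852 to 1596 in the FVB control comparison and 0 to 9 for the difference of effects. Testing all probe sets left 1 of the 10 genes called in PpargΔ/Δ (Aqp2), 176 genes in AZIP and 0 for the difference. Fitting only the groups compared gave 607 genes in PpargΔ/Δ, 162 in AZIP and 1 of the 10 in the FVB control comparison. An adjusted p under 0.10 gave 1938 genes in PpargΔ/Δ, 1035 in AZIP, 3 of the 10 in the FVB control comparison and 7 for the difference. Above percentile 50, 836 genes were called in AZIP and 1 for the difference. An intensity trend gave 785 in AZIP. In the FVB control comparison, 1 of the 10 was called with equal medians, 3 above percentile 25, 3 above percentile 50, 3 with the trend and 4 with array weights, which called 2219 genes in all. With the replicate block, 4 of the 10 and 1102 genes were called in PpargΔ/Δ, 0 and 694 in AZIP, 0 and 1489 in the FVB control comparison, and 1 gene for the difference. The block ended the calls of Scnn1g and of Krt5 for the difference, and among the other genes named here changed none but Aqp8. The AZIP values of Slc6a6, Scnn1a, Scnn1g, Lipe and Fabp4 were not followed under it.

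Signs turned only in small differences. With an array left out, Aqp5 lay at -0.069 to 0.028 and Nfat5 at -0.023 to 0.042 in PpargΔ/Δ. In AZIP, Aqp3 lay at -0.061 to 0.144, Aqp5 at -0.008 at its lowest, Aqp6 at -0.019 to 0.01, Aqp8 at -0.063 to 0.087 and Avpr2 at -0.119 to 0.013. In the FVB control comparison Aqp4 lay at -0.147 to 0.112 and Aqp7 at -0.064 to 0.196. For the difference of effects Aqp7 lay at -0.041 to 0.219 and Aqp11 at -0.024 to 0.094. On repeated quantile normalization and with equal medians, Nfat5 in PpargΔ/Δ was -0.017 and -0.014, and Aqp8 in AZIP was -0.016 and -0.014. The cause of these changes was not tested.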
